A study of Caenorhabditis elegans with 3 samples.

Results

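The strong EGL-27 regions of the X chromosome are 383 of the 1500 highest regions in a list of 30000 that was made from 3 pooled chromatin immunoprecipitation sequencing (ChIP-seq) replicates of Caenorhabditis elegans. They were chosen by 2 things only, the signal value that the authors gave each region and its place on X, so neither their height nor their number on X is a finding, and both are described here without a test. The other 1117 of the 1500 regions, on the autosomes, serve as the comparison. All samples are whole first-stage (L1) larvae of strain OP177, labelled as pooled male and female and of unknown age, which carries unc-119(ed3) III and the transgene wgIs177. The transgene makes an extra copy of EGL-27 with GFP and FLAG joined at its C-terminus, and whole animals mix all cell types and both sexes. The antibody label reads egl-27. It does not say whether the tagged copy, the worm's own protein or both were pulled down. Only 1 condition exists, in 3 biological replicates by the labels, and all were set against the same control alignment. Read depth is unknown, because the lists hold no counts.

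EGL-27 belongs to the MTA family of chromatin proteins, which form part of the NuRD histone deacetylase complex, and it carries a GATA-type zinc finger. It is known from worm genetics for roles in cell polarity, cell fate and the stress response. The X chromosome of C. elegans is special in its own right. Hermaphrodites have a pair of X chromosomes and males a single one, and in hermaphrodites the dosage compensation complex, a relative of condensin, coats X and lowers its expression. SDC-2 directs the complex to recruitment sites on X, which are marked by a short motif named MEX (motif enriched on X), and xol-1 is the switch gene that decides upstream whether the complex assembles. The motif was searched here by its core letters, GCGCAGGG, on both strands.

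The core lay within 100 bp of the summit in 15 of the 383 X regions, 3.92% (95% exact binomial interval 2.21 to 6.38), against 4 of 1117 autosomal regions, 0.358% (0.0977 to 0.914). Windows of the same 201 bp tiled along the chromosomes held it in 0.0851% on X and 0.0553% on the autosomes. The X share depended on the set: it was 8.27% among the X regions of the authors' list of reproducible peaks, and 7.30% to 7.69% among X regions overlapped by the 1500 highest of both replicates of a pair, over the 3 pairs. These 15 regions stood high within the X set. Their median signal was 43.9, against 24.8 for the 368 X regions without the core, and 6 of the 25 highest X regions had it. Of the 15, 11 were in that list (the irreproducible discovery rate or IDR list, which is the top of the pooled list), and 9 were among the 1500 highest regions of every replicate. Of the 368 without the core, 122 were in the IDR list and 88 were among the highest of every replicate. Like the median, these counts follow the signal value, so they are no separate support. By annotation 10 of the 15 lay between genes, 2 in introns, 2 in promoter windows and 1 in a coding exon.

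The 8 regions whose core follows the letters TATC, together with 3 whose core does not, are printed to show what surrounds the core, which is in capitals. Each runs 5′ to 3′ on the strand that reads the core, with 16 bases on either side, on build ce11. They were picked after their values were seen.
Rank 11, chrX:14525884-14525923, minus strand: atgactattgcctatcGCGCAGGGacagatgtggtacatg
Rank 19, chrX:11094109-11094148, minus strand: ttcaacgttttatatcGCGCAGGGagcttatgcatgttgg
Rank 31, chrX:4209250-4209289, minus strand: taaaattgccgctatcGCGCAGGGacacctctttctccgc
Rank 37, chrX:806658-806697, plus strand: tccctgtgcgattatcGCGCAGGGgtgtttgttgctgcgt
Rank 43, chrX:8036385-8036424, minus strand: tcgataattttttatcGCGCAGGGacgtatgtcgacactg
Rank 56, chrX:6296560-6296599, plus strand: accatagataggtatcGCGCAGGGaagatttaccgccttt
Rank 124, chrX:2997107-2997146, minus strand: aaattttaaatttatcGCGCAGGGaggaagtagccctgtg
Rank 465, chrX:13514542-13514581, plus strand: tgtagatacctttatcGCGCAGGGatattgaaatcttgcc
Rank 174, chrX:5429574-5429613, plus strand: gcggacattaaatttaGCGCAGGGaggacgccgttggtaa
Rank 281, chrX:6250294-6250333, minus strand: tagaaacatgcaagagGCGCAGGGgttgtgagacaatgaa
Rank 1455, chrX:4395599-4395638, plus strand: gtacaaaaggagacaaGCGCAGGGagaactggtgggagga

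All of the 7 highest regions with the core have TATC directly before it, and 8 of the 15 do. The letter after the core is A in 13 of the 15. The rank 56 and rank 43 cores lie 3 and 4 bp from the summit, and the rank 11 and rank 19 cores lie 40 bp away. In 4 of the 15 regions the core occurs more than once.

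Looked at from the motif instead of the regions, the core occurs 81 times on X (4.57 per Mb) and 233 times on the autosomes (2.82 per Mb). On X 20 of the 81 (24.7%) lay inside a strong region, although those regions cover 0.762% of X. On the autosomes 5 of the 233 (2.15%) did, where strong regions cover 0.480% of the sequence. The preceding letters went with a further gap. With a C before the core, 13 of 33 matches on X were inside a strong region, against 0 of 44 on the autosomes. With TC it was 11 of 19 on X and 0 of 6 on the autosomes, and with ATC 10 of 13 on X and 0 of 2 on the autosomes. With TATC, 8 of the 9 matches on X were in a strong region, all 8 of them in the IDR list, and the autosomes have 0 such matches. The remaining X match was in no listed region. The TATC letters were read from the strong regions themselves, so this count describes them and is no independent check.

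**Figure D1:**
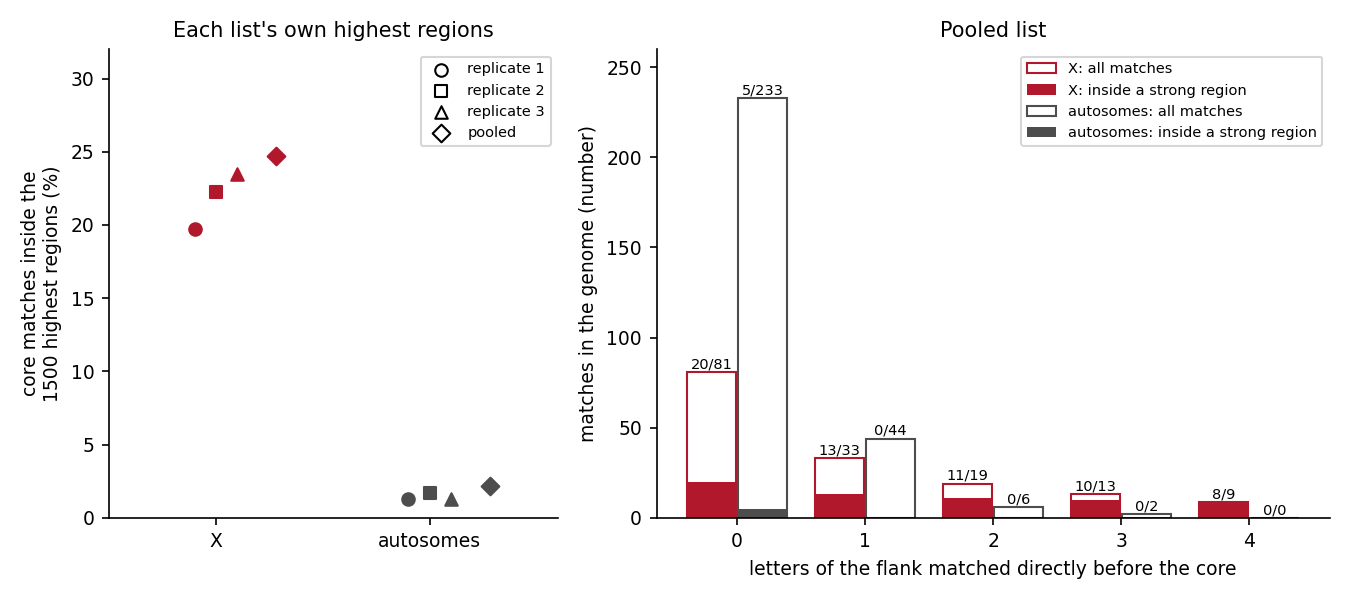
Share of all genome matches to the MEX core that fall inside the 1500 highest regions of each list, X at the left and autosomes at the right (left panel, % on the y axis), and the number of matches by how many letters of the flank TATC directly precede the core (right panel, open bars all matches, filled bars those in a strong region of the pooled list). On X the share is between 19.8% and 24.7% in the 4 lists and on the autosomes between 1.29% and 2.15%; with all 4 letters, 8 of 9 X matches are inside.

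Each replicate showed the same order in its own 1500 highest regions. Replicate 1 had the core at 2.67% of X regions and 0.266% of autosomal ones. Replicate 2 had it at 2.65% on X and 0.267% on the autosomes, and replicate 3 at 3.05% on X and 0.263% on the autosomes. All 3 X shares lay above all 3 autosomal shares, and the difference averaged 2.53 ± 0.22 percentage points (SD, n = 3 replicates; exact two-sided sign-flip permutation p = 0.25, adjusted p = 0.475). With 3 replicates 0.25 is the smallest p that this test can give, so none of the 19 measures compared in this way can pass 0.05, and a p of 0.25 says only that all replicates had the same sign. Of the 81 cores on X, 16, 18 and 19 lay in the highest regions of replicates 1, 2 and 3, against 3, 4 and 3 of 233 on the autosomes.

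Among the regions with the core, the one at rank 11 had a pooled signal of 93.2 and lies 763 bp upstream of nspc-17. Its replicate signals were 16.4 in replicate 1, 46.2 in replicate 2 and 32.2 in replicate 3. Each list has its own scale, and by rank the region was 101st in replicate 1, 7th in replicate 2 and 19th in replicate 3. The region at rank 19 had 85.0 pooled, and 22.2, 33.7 and 26.5 in replicates 1, 2 and 3. It lies between genes, 4017 bp past the start of W02H3.3 and beyond the end of that gene, and holds 2 cores. At rank 31, a region (78.0 pooled; 23.1, 26.9 and 29.5 in replicates 1, 2 and 3) lies 1772 bp upstream of F20B6.9. It was 28th, 59th and 29th in those lists.

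At rank 37, a region (74.4 pooled; 12.7, 35.7 and 28.1 in replicates 1, 2 and 3) lies between genes, 3921 bp past the start of gtr-1 and beyond its end. The region at rank 43, with 72.2 pooled, lies 4912 bp upstream of xol-1, the sex-determination switch named above, whose start is the nearest to it. Its replicate signals of 26.8, 20.6 and 26.2 placed it 15th, 142nd and 47th in replicates 1, 2 and 3. It also lies 284 bp from a tRNA gene, and a second strong region at rank 494 overlaps it. At rank 56, a region (63.7 pooled; 14.9, 22.3 and 35.0 in replicates 1, 2 and 3) is in an intron of mom-1, which encodes a Porcupine-like protein needed for Wnt secretion. Some lower regions with the core ranked far down in 1 replicate: the rank 174 region, in a coding exon of pks-1, a polyketide synthase gene, was 27268th in replicate 1, 299th in replicate 2 and 127th in replicate 3.

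The GA repeat, searched as GAGAGA, was the most frequent of the 8 motifs in the X set, and was rarer at the regions with the core. It was near 3 of the 15 (20%), against 45.1% of the 368 without the core, an untested difference that rests on few regions. Over all X regions it was present in 169 (44.1%, interval 39.1 to 49.3), against 588 autosomal ones (52.6%, 49.7 to 55.6), and in 9.50% of X windows and 10.1% of autosomal windows. Between replicates that difference had mixed sign, at -1.74, 1.54 and -6.88 percentage points in replicates 1, 2 and 3. Repeats of at least 10 bp were near 24 X regions (6.27%) and 136 autosomal ones (12.2%).

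The GC box CCGCCC was near 30 X regions (7.83%) and 139 autosomal ones (12.4%), and its base ran the same way, with 2.45% of X windows and 3.31% of autosomal windows. It was lower on X in 3 of 3 replicates, with a difference of -4.26 ± 0.88 percentage points (SD, n = 3; exact sign-flip permutation p = 0.25, adjusted p = 0.475). The TATA box TATAAA was also lower on X in every replicate, with 8.86% to 13.4% of X regions and 11.1% to 15.5% of autosomal regions, although 22.8% of X windows and 20.9% of autosomal windows held it. The CA repeat CACACA was higher on X in every replicate, with a mean difference of 2.62 ± 1.26 percentage points, and was in 9.57% of X windows and 8.12% of autosomal windows. The CACGTG E-box, a site of GATA factors (TGATAA) and the homeodomain core (TAATTA) had differences of mixed sign between replicates. A further word, CTGCGTC, was noticed after the data were seen. It was near 43 X regions (11.23%) and 226 autosomal ones (20.2%), on a base of 1.07% of X windows and 1.65% of autosomal windows. It was below the autosomes in each replicate, at 7.22%, 9.02% and 11.9% on X against 12.2%, 11.6% and 20.7% on the autosomes. Mean GC content near the summit was 45.9% on X and 44.9% on the autosomes, above the 35.2% of X windows and 35.5% of autosomal windows.

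The highest of all X regions, at rank 5, was in an intron of nhr-3, a nuclear hormone receptor gene, 1906 bp past its start. It had a signal of 104.5, with 37.9, 27.5 and 42.7 in replicates 1, 2 and 3, and it was within the 51 highest regions of all of them. The region at rank 7, 333 bp upstream of puf-9, had 96.8 pooled and 37.8, 36.4 and 24.7 in the replicates. PUF-9 is a Pumilio-type RNA-binding protein that acts in the timing of larval development. The region at rank 8 lies 2889 bp upstream of sma-9, a Schnurri-like zinc finger gene of the body size pathway, and had 96.4 pooled and 23.4, 46.4 and 31.5 in the replicates.

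The window of the rank 5 summit is printed because it has neither MEX core nor GA repeat, and those at puf-9 and sdc-2 because they have the GA repeat, read here as its complement and shown in capitals. Each is 101 bases of the plus strand, on ce11.
Rank 5, nhr-3 intron, chrX:14560360-14560460: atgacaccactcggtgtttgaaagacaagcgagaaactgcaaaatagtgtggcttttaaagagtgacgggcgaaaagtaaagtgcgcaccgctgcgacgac
Rank 7, puf-9 promoter, chrX:5841209-5841309: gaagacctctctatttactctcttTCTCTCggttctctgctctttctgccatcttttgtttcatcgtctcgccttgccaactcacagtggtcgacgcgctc
Rank 948, sdc-2 promoter, chrX:11522185-11522285: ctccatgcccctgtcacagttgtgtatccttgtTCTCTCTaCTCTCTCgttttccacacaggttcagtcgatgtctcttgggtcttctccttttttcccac

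The sdc-2 window carries a pair of GA repeats read in the same way. sdc-2 is the X-linked gene for the protein that starts loading of the dosage compensation complex. Its region, 472 bp upstream of the start, had 22.5 pooled, 4.86 in replicate 1 and 10.1 in replicate 3, and was not listed in replicate 2. It is one of the weakest regions named here, outside the IDR list.

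**Figure D2:**
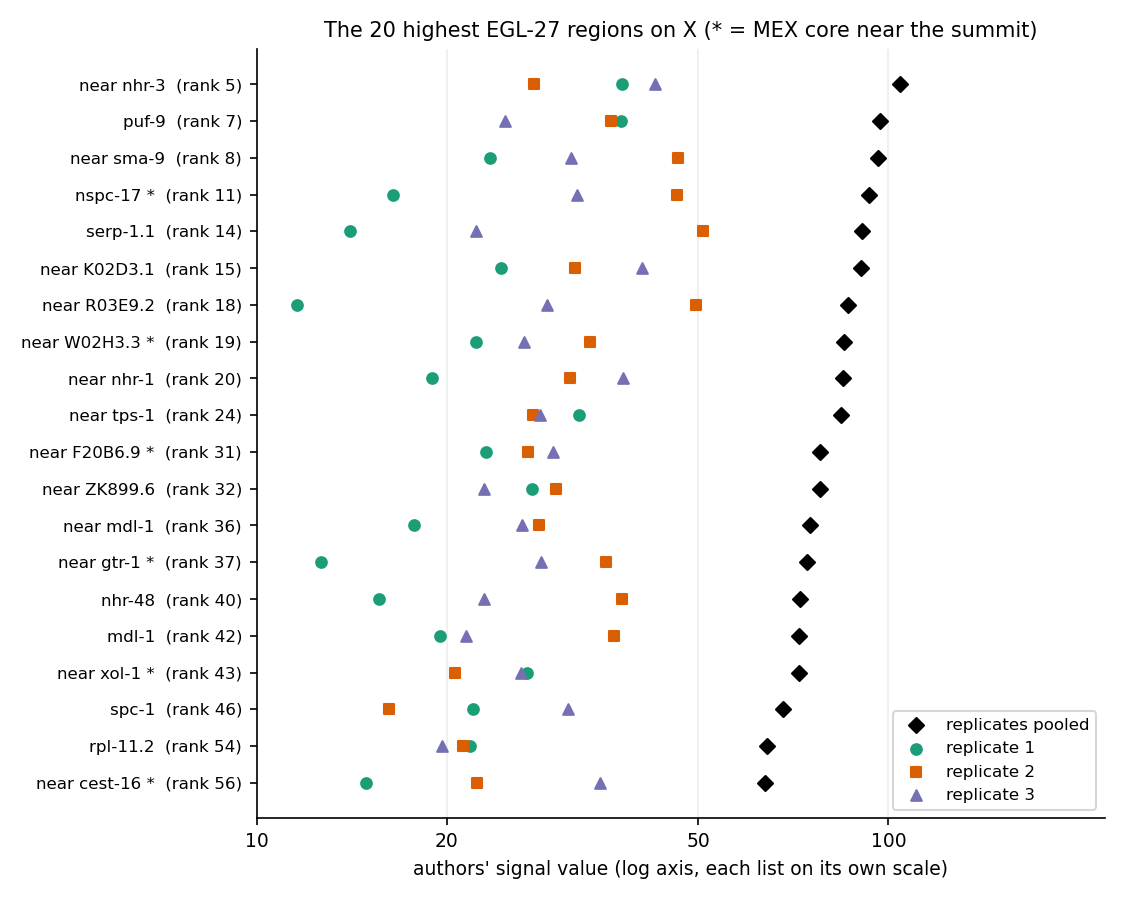
Authors' signal value (log axis) of the 20 highest EGL-27 regions on X, one per row, in the pooled list (diamonds) and in replicates 1 to 3 (circles, squares, triangles), named by the gene whose promoter window holds the summit or by the nearest start, with an asterisk where the MEX core is near the summit. Pooled values run from 104.5 down to 63.7, and the order of the rows differs between replicates: the rank 18 region was 349th in replicate 1, 4th in replicate 2 and 31st in replicate 3.

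Further down the first 20 came mdl-1, a Mad-like transcription factor gene, with 1 region 101 bp upstream of its start (72.2 pooled; 19.5, 36.7 and 21.5 in replicates 1, 2 and 3) and another in the neighbouring gene abts-4 (75.1 pooled; 17.8, 27.95 and 26.3). These belong to a row of 9 strong regions that spans 12516 bp, the row with the most members on X when gaps under 10000 bp are joined. Other rows were 7 regions over 8795 bp at nhr-3, 6 over 8938 bp at sma-9 and 7 over 28778 bp at scd-1. A further row of 7 spans 37418 bp from elt-3 to pqn-39, and a further row of 6 spans 8649 bp without a protein-coding gene. The scd-1 gene body held 5 summits, all in introns, with pooled signals from 18.9 to 39.01. kin-20, a casein kinase 1 gene of the developmental timing pathway, sma-9 and ZK470.2 held 3 each, and were named after their counts were seen. By contrast 175 X regions stood alone, at least 10000 bp from the next, and the median gap between neighbours was 26222 bp.

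The other promoter regions among the first 20 were at serp-1.1 (90.7 pooled), nhr-48 (72.4), spc-1 (68.1) and rpl-11.2 (64.2). spc-1 encodes alpha-spectrin, and its region 775 bp upstream had 22.0, 16.2 and 31.1 in replicates 1, 2 and 3. rpl-11.2 encodes the ribosomal protein L11, and its region 354 bp upstream had 21.7, 21.3 and 19.6, which placed it 37th, 131st and 126th in replicates 1, 2 and 3. Regions far from any start were those nearest K02D3.1 (90.4 pooled, 6019 bp), R03E9.2 (86.3, 4511 bp), nhr-1 (84.7, 8137 bp), tps-1 (84.2, 5465 bp) and ZK899.6 (78.0, 2537 bp). tps-1 encodes a trehalose phosphate synthase, and its region had 32.3, 27.4 and 28.1 in the replicates.

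Promoter windows, which reach 1000 bp before and 200 bp after each protein-coding start, held 144 X summits (37.6%, exact interval 32.7 to 42.7) and 498 autosomal ones (44.6%, 41.6 to 47.6). Such windows make up 17.6% of X and 22.3% of the autosomes. The X share was lower in 3 of 3 replicates: 32.9%, 29.7% and 37.7% on X against 38.99%, 34.1% and 41.5% on the autosomes. Between genes lay 112 X summits (29.2%) and 270 autosomal ones (24.2%), on 29.3% of the X sequence and 19.9% of the autosomal sequence. That share was higher on X in every replicate, by 7.49 ± 1.75 percentage points (SD, n = 3; exact sign-flip permutation p = 0.25, adjusted p = 0.475). The sequence base ran the same way for both classes, lower on X for promoter windows and higher on X between genes. Neither gap can therefore be read as a trait of the EGL-27 regions. Introns held 91 X summits (23.8%) and 268 autosomal ones (23.99%), coding exons 5 on X and 14 on the autosomes, and 3′ UTRs 0 of 383 (exact interval up to 0.959%) on X and 5 of 1117 on the autosomes.

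**Figure D3:**
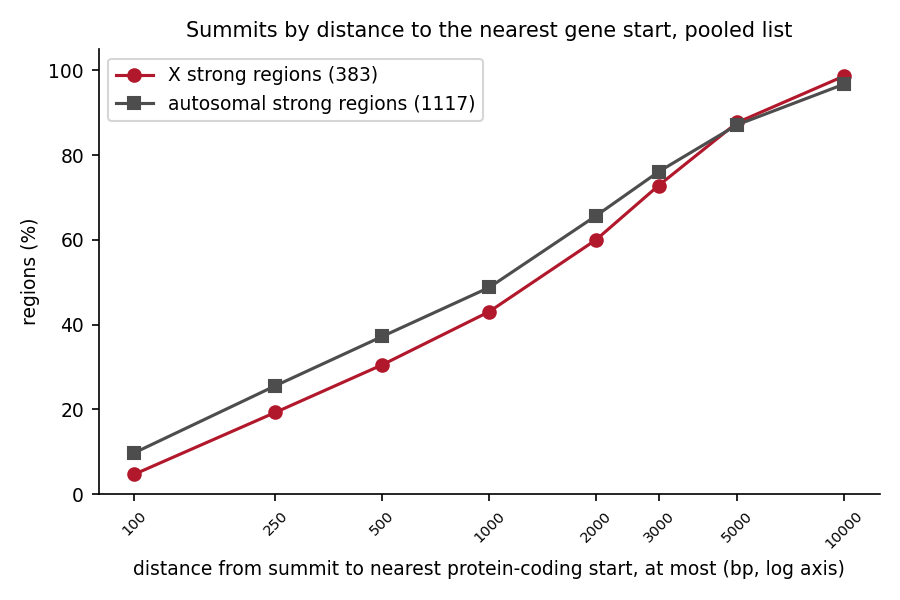
Cumulative share of summits (y axis, %) by distance to the nearest protein-coding start (x axis, bp, log scale), for the 383 X strong regions (circles) and the 1117 autosomal ones (squares) of the pooled list. At 250 bp the lines stand at 19.3% on X and 25.6% on the autosomes, and at 5000 bp at 87.7% and 87.2%.

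The plot of distances shows the gap near the gene starts. The median distance was 1410 bp on X and 1046 bp on the autosomes, and by replicate it was larger on X by 525, 464 and 254 bp (414 ± 142, SD, n = 3). X holds 17.7% of the genome's length and 13.7% of its protein-coding genes, so gene starts are sparser there. No base distance is given here, so the gap cannot be read as a trait of the EGL-27 regions. Summits in promoters shared by neighbouring genes were also less common on X. Of the 144 X promoter summits, 10 (6.94%) lay in the windows of more than 1 gene, against 164 of 498 on the autosomes (32.9%). In the replicates the shares were 4.07%, 7.14% and 5.88% on X against 27.8%, 28.7% and 30.7% on the autosomes, with no overlap. Such shared windows make up 5.05% of X promoter sequence and 12.005% of autosomal promoter sequence, so the base is lower on X as well. This split was added after the data were seen.

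**Figure D4:**
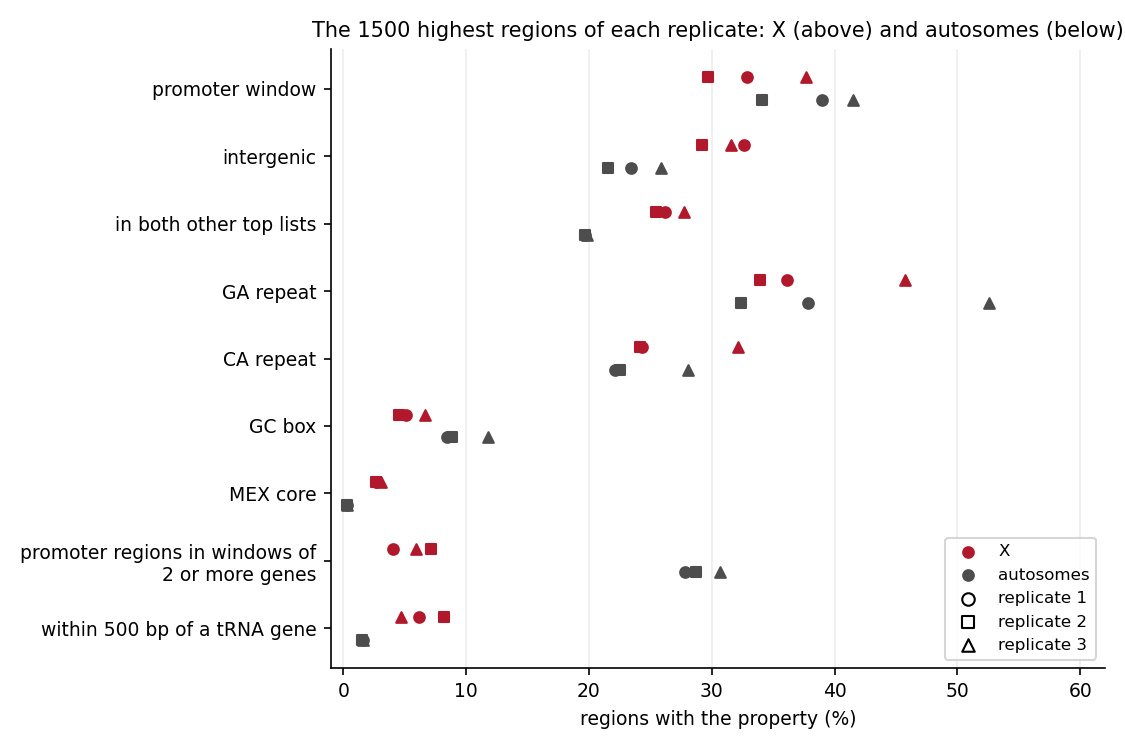
Share of regions (x axis, %) with each property among the 1500 highest regions of replicates 1, 2 and 3 (circles, squares, triangles), with X in the upper row and autosomes in the lower row of each pair. X lies to the left for promoter windows, the GC box and windows of 2 or more genes and to the right for intergenic summits, the CA repeat, the MEX core, tRNA genes and regions shared with both other replicates, while the GA repeat changes side.

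Of all X protein-coding genes, 151 of 2731 (5.53%) had a strong summit in the promoter window, against 665 of 17242 autosomal genes (3.86%), and the gene lists are to be read against these shares. Nuclear hormone receptors, ligand-regulated transcription factors that are greatly expanded in nematodes, had 4 of 23 on X (nhr-48, 72.4; nhr-1, 44.1; nhr-3, 42.4; nhr-14, 26.3) and 13 of 246 on the autosomes. The X count was 2 without replicate 2 and 2 without replicate 3, in sets of regions shared by the top lists of the other replicates. Those sets are smaller, and of all 2731 X genes 51 and 43 had a promoter summit in them, against 151 in the full set. Heterochronic and molting genes, which time larval stages, had 2 of 6 on X, puf-9 and lin-14, and 1 of 9 on the autosomes. LIN-14 is the transcription factor of first-stage fates, and its region 167 bp upstream had 42.6 pooled and 11.4, 17.6 and 13.2 in replicates 1, 2 and 3. The microRNA Argonaute gene alg-1 and the steroid receptor gene daf-12 had none in the window but were the nearest start of a strong region, at 35.5 for alg-1 and 42.98 for daf-12.

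The dosage compensation complex list had 1 of 2 on X, which is sdc-2, and 0 of 8 on the autosomes. That 1 gene was absent from the IDR list and from the regions shared by the top lists of both remaining replicates when 1 was left out. These sets are smaller. Of all X genes, 51 had a promoter summit in the IDR list and 59, 51 and 43 without replicates 1, 2 and 3, against 151 in the full set. The list of X:A signal and sex determination genes had 0 of 4 on X, among them xol-1 and fox-1, and 0 of 7 on the autosomes, with xol-1 reached only as nearest start. Ribosomal protein genes were rare on X, with 1 of 2 against 36 of 75 on the autosomes. Of the 16 unc genes on X, only unc-115, an actin-binding protein gene, had a strong summit in its promoter window, against 9 of 78 on the autosomes. Its region, 33 bp upstream, had 53.0 pooled and 24.6, 12.2 and 17.97 in the replicates. The lin genes had 1 of 6 on X, lin-14 again, and 8 of 41 on the autosomes. Collagens had 1 of 27 on X, col-176 (20.6), and 2 of 129 on the autosomes, and col-176 too was absent from all of those smaller sets. On X the lists of 18 ceh homeobox genes, 32 neuropeptide genes, 8 acetylcholine receptor genes, 5 vitellogenin genes, 5 egl genes, 4 GATA factor genes, 4 daf genes, 3 Wnt genes and 3 body size genes had 0 each. On the autosomes egl genes had 3 of 22, ceh genes 2 of 45, daf genes 1 of 22, Wnt genes 1 of 24 and body size genes 1 of 11. The autosomal members of the neuropeptide, acetylcholine receptor, vitellogenin and GATA factor lists, 70, 22, 1 and 7 genes, had 0. These lists are short, and their difference from the share of all X genes was not tested.

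Transfer RNA genes, which RNA polymerase III transcribes, were within 500 bp of 38 X regions (9.92%) and 15 autosomal ones (1.34%). Counted by gene, 48 of 276 X tRNA genes (17.4%) and 18 of 336 autosomal ones (5.36%) had a strong region that near. By replicate the shares of regions were 6.15%, 8.22% and 4.71% on X against 1.599%, 1.51% and 1.58% on the autosomes, without overlap. These regions were of middling height, with a median signal of 22.5, and 9 of the 38 were in the IDR list. The highest after the xol-1 neighbour had 49.2 pooled, and 14.5, 18.2 and 11.0 in replicates 1, 2 and 3. Small nucleolar RNA genes went the other way, near 1 X region (0.261%) and 50 autosomal ones (4.48%). X has few of these genes: 1 of 33 on X (3.03%) and 49 of 313 on the autosomes (15.7%) had a strong region that near. Over all small RNA classes together the difference had mixed sign between replicates. The tRNA split was made after the data were seen. A single X region had microRNA genes within 500 bp, 3 of them, with mir-54 the nearest at 322 bp, and it had 39.3 pooled and 6.45, 23.7 and 11.4 in the replicates.

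The X share was highest in the first 200 regions of the pooled list and changed little between 1000 and 1500. X held 36% of the 50 highest regions (exact interval 22.9 to 50.8), 31% of 100, 32% of 200, 25.4% of 1000, 25.5% of 1500, 23.1% of 10000 and 21.1% of all 30000, while X is 17.7% of the genome's length and 13.7% of its protein-coding genes. Strong regions numbered 21.6 per Mb on X and 10.6 to 15.8 per Mb on the other chromosomes. In the 1500 highest regions of replicates 1, 2 and 3, X held 24.9%, 25.1% and 24.1%, against 20.5%, 20.03% and 20.8% of the rest of each list. The proportion of males, and with it the number of X copies in the larvae and in the control, is not given in the sources used here.

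Within the X set the signal ran from 18.7 to 104.5 with a median of 25, against a median of 24.8 and a maximum of 166.1 on the autosomes, and 133 X regions (34.7%) were IDR peaks, against 35.0% of autosomal ones. Just inside the limit of 1500, the X regions at ranks 1487, 1496 and 1498 had 18.78, 18.75 and 18.73, and just outside, those at ranks 1507, 1508 and 1510 had 18.68, 18.67 and 18.67. Nothing in the values separates the sides. The 1500 highest regions of all 3 replicates overlapped 97 X regions (25.3%), those of 2 replicates 110, of 1 replicate 145 and of none 31. The 97 had a median pooled signal of 42.6, and the 31 had 20.04. The Spearman correlation of signal across X regions was 0.20 between replicates 1 and 2 (336 regions), 0.35 between 1 and 3 (324) and 0.41 between 2 and 3 (331), over regions chosen by their pooled height.

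Taking each replicate's own 1500 highest regions, those on X were found in both other top lists more often than those on the autosomes. The shares were 26.2%, 25.5% and 27.7% on X against 19.7%, 19.7% and 19.8% on the autosomes. The difference of 6.71 ± 1.05 percentage points was positive in 3 of 3 replicates (exact sign-flip permutation p = 0.25, adjusted p = 0.475). Place in a top list is set by the signal value, the kind of value that also chose the members. Pooled strong regions cover 0.762% of X and 0.480% of the autosomes, so the base for an overlap is higher on X. The difference is therefore no independent measure of repeatability, and its cause was not tested. Along X itself the regions were spread over the whole length, with 71, 98, 102 and 112 in 4 equal stretches from the left end and between 10 and 34 in each full Mb.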

How the data were processed

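Per the labels and the file notes, the authors deposited a relaxed list, which also holds background, for each replicate and for the pool, plus an IDR list, with ce11 and ce10 versions. The sources used here do not give an aligner or a peak caller. Column 7, the deposited signal value, is the authors' own score for a region, on a scale that is not stated, and it ranked regions within a list; values from different lists stand side by side without a common scale. The −log10 q-value that the authors deposited was left aside. Positions are summits, from the offset in bp that the authors deposited.

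The 1500 highest pooled ce11 regions were kept and those on X taken as members. Coordinates are 1-based on ce11, with genes from Ensembl release 115 and sequence from RefSeq. A summit took the first class that applied: promoter, then UTR or coding exon, then intron, noncoding gene or intergenic. Motifs were searched on both strands within 100 bp of the summit, allowing overlaps. Small RNA genes counted within 500 bp. A replicate's value for a member is the highest signal of an overlapping region in its list. X minus autosome differences were taken within each replicate's own 1500 highest regions and tested with an exact two-sided sign-flip permutation test over 3 replicates, with Benjamini-Hochberg adjustment over 19 measures. Shares have exact 95% binomial intervals, which cover counting only. Named genes were those of the 20 highest X regions, up to 4 of each gene list, genes with 4 or more summits, and microRNA neighbours. The members and lists were chosen with earlier results of these data known. Classification and motif search were tested on simulated data. Computation used Python 3.11.15 with pandas 2.3.3, numpy 2.4.6 and scipy 1.17.1, and plots used matplotlib 3.10.9.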

Additional observations from a re-analysis of the deposited data

How the results depend on the processing

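Over the 19 measures, 163 of 182 alternatives kept the sign of the X minus autosome difference. Part of that count was fixed in advance. The region midpoint gave the main value again for every class and for every motif but the GA repeat. Where a class, motif, GC content or distance difference had the same sign in all 3 replicates, leaving 1 replicate out could not turn it. Promoter, intergenic, MEX core, GC box, TATA box, CA repeat, GC content, distance and sharing differences kept their sign in all alternatives run. The MEX core difference stayed between 1.70 and 5.05 percentage points, shorter and longer forms chosen after seeing the data included. Both UTR classes, noncoding genes and the GA repeat kept their sign too, but of these only noncoding genes had the same sign in every replicate. The 5′ UTR differences were -0.97, -0.27 and 0.08 percentage points in replicates 1, 2 and 3, and the 3′ UTR ones 0.18, -0.45 and -0.51. Without replicate 3 the GA repeat difference was -0.099. The remaining 6 turned as follows, in percentage points. Coding exons gave 0.072 with as many regions as the IDR list. The GATA site gave -1.05, -0.36 and -0.030 with the IDR list's number, 1000 and 3000 regions, -0.33 to 0.59 with 1 replicate left out, -0.64 and -0.41 with windows of 50 and 200 bp, and -0.45 with neighbours within 1000 bp left out, an alternative chosen after seeing the data. Introns gave 1.33 with 3000 regions, -1.65 to 0.12 with 1 replicate left out and 0.51 with promoter windows of 2000 bp. The E-box gave -0.093 with 3000 regions and -0.055 with 200 bp windows. Small RNA genes gave 0.48 with 3000 regions, -1.04 to 1.004 with 1 replicate left out and 0.43 within 200 bp. The homeodomain core gave -1.07 to 0.21 with 1 replicate left out, and 0.064 and 0.81 with windows of 50 and 200 bp. The cause of these turns was not tested.

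Members found in the top lists of both remaining replicates, when 1 replicate was left out, gave an X share of 27.3% to 29.1%, a MEX core share of 7.30% to 7.69% and 43 to 59 X genes with a promoter summit; these sets hold fewer regions. In the IDR list the core was near 8.27% of X regions and 51 X genes had a promoter summit. Over all strong X regions, assignment by nearest start in place of the promoter window gave 305 X genes. The ce10 list gave the same number of X regions. No paired analysis of sample groups was possible because only 1 exists; X and autosomes were compared within each replicate. Depth is unknown, so no value could be weighed by it.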
